A study of Mus musculus with 6 samples.

Results

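Cartilage and growth plate genes were followed in 6 RNA-seq libraries from the mouse strain CC016/GeniUnc, 1 of the inbred lines of the Collaborative Cross. The set is of 10 genes chosen by name for their place in cartilage (*Sox9*, *Acan*, *Comp*, *Matn1*, *Matn3*, *Matn4*, *Hapln1*, *Chad*, *Ihh* and *Snorc*), out of 48733 named genes in the deposited tables. 9 of the 10 were found under their own name. *Snorc* was listed under its older symbol 3110079O15Rik, which the RefSeq table of GRCm38.p6 gives as a synonym of this gene alone. 3 libraries are labelled bone, which the labels describe as cortical bone of the femur without its marrow. The other 3 are labelled osteoblasts and came from bone marrow stromal cells that had been cultured for 8 days in osteogenic medium, whose additions were dexamethasone at 10 nM, beta-glycerophosphate at 10 mM and ascorbic acid at 50 µg/ml. Libraries are named below by their label and replicate number, as bone 1 or osteoblasts 3. All 6 libraries share the strain, and the study's methods give 3 mice without saying which mouse gave which library. Those methods take femora from the 3 mice and then describe marrow and its stromal cells, so both labels may share animals. The main tests treat the libraries as unpaired. Ages are not among the labels. Since no label ties a replicate number to an animal or a culture, the p-values measure the spread between these libraries, which may in part be technical.

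Cartilage is built by chondrocytes, which secrete a hydrated matrix of collagen II fibrils and of the proteoglycan aggrecan bound to hyaluronan. In the growth plate at the ends of a long bone, chondrocytes divide, enlarge and are replaced by bone, and Indian hedgehog from the enlarging cells sets the pace of that sequence. SOX9 is the transcription factor that starts and maintains the program. Cortical bone holds osteocytes and lining cells rather than chondrocytes, and osteogenic medium drives stromal cells toward osteoblasts, so the set asks how much cartilage RNA each library held. By the protocol in the labels, the proximal end of each femur was taken off before the marrow was spun out, and removal of the distal end is not mentioned.

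Expression is given as FPKM, the fragments per kilobase of transcript, scaled to the aligned reads of the library, which allows levels of genes to be set side by side. This has a limit where FPKM and the deposited coverage, the mean read depth over a feature, rank genes differently, as given for *Snorc* below. The tables hold no read counts. The depth read from the ratio of coverage to FPKM gave 2.04 to 3.39 Gb of aligned bases per library, and 3 read pairs on a transcript of 1 kb came to 0.133 to 0.221 FPKM, which is called the floor here and covers counting error only. The hemoglobin gene *Hbb-bt* measured 7.05, 3.58 and 34838 FPKM in bone 1 to 3, and 3.43, 34268 and 48650 FPKM in osteoblasts 1 to 3. It was thus above 1000 FPKM in 3 of the 6 libraries, those labelled bone 3, osteoblasts 2 and osteoblasts 3. These 3 libraries correlated with one another at a Pearson's r of 0.965 to 0.973 across 12112 genes, and with the other 3 at 0.640 to 0.680. The libraries therefore went against their labels in this respect before any cartilage gene was considered. Every library keeps its deposited label here. No values were averaged over the *Hbb-bt* division, which was read from the data, and no difference across it was tested. It served only in alternative fits of the comparison of labels, as a term or to leave out libraries. Unnamed features took 71.5% of the FPKM in bone 2 and 65.0% in osteoblasts 1, against 27.4 to 30.7% in the other libraries.

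The 10 genes together summed to 32.4, 11.0 and 442 FPKM in bone 1 to 3, and to 13.1, 373 and 270 FPKM in osteoblasts 1 to 3. The sum was high in the 3 libraries with *Hbb-bt* above 1000 FPKM, and each label held both high and low libraries. 9 of the 10 genes had all 3 of their values in the libraries with *Hbb-bt* above 1000 FPKM higher than all 3 of the others, and for *Matn4* the order was the opposite. For *Sox9* this held in FPKM but not in the deposited TPM, which are rescaled to nearly the same total per library. Of the 12112 genes whose mean reached 1 FPKM, 38.4% were wholly above in the same libraries and 16.9% wholly below, so this division ran through much of the transcriptome. Within the labels, the values of 10 of the 10 genes overlapped between bone and osteoblasts. Among all 12112 genes, 0.479% lay wholly above under the label osteoblasts and 0.438% wholly below. The RNA is from bulk samples, in which fewer cells of a type and less RNA per cell cannot be told apart.

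**Figure D1:**
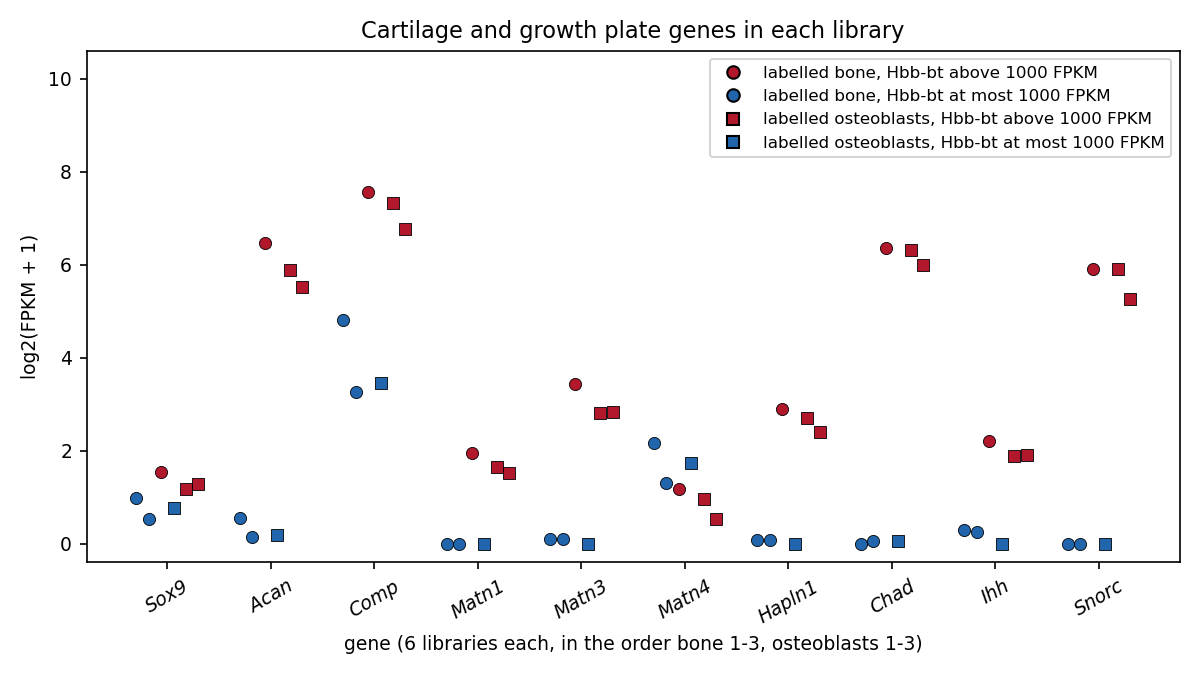
Expression of the 10 genes as log2(FPKM + 1) in each of the 6 libraries, with 1 point per library. Circles are libraries labelled bone, squares those labelled osteoblasts, and red marks an *Hbb-bt* above 1000 FPKM. Red points stand above blue points for 9 genes and below them for *Matn4*, while circles and squares overlap for every gene.

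*Sox9* lies on Chr. 11 (112782224 to 112787760, plus strand) in GRCm38, the build of all positions here. It measured 0.979, 0.447 and 1.91 FPKM in bone 1 to 3, and 0.707, 1.24 and 1.45 FPKM in osteoblasts 1 to 3. Among the genes that were higher with *Hbb-bt*, this regulator showed the smallest gap. The lowest of those 3 values was 1.27 times the highest of the other 3, and all 6 values were above the floor. In TPM the sets overlapped, with 1.14 in bone 1 against 1.02 in osteoblasts 2. In every library *Sox9* was near or below 2 FPKM, which placed it between the percentiles 5.45 and 18.2 of genes with at least 1 FPKM where it passed that level.

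*Acan* encodes aggrecan, the main proteoglycan of cartilage, on Chr. 7 (79053483 to 79115099, plus strand). It measured 0.457, 0.107 and 87.0 FPKM in bone 1 to 3, and 0.145, 58.0 and 44.7 FPKM in osteoblasts 1 to 3. The lowest of its 3 high values was 97.9 times the highest of its low values. In the 3 libraries with high values *Acan* stood between the percentiles 91.6 and 95.8 of genes with at least 1 FPKM.

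*Hapln1* encodes the link protein that fastens aggrecan to hyaluronan and lies on Chr. 13 (89539796 to 89611652, plus strand). It measured 0.058, 0.060 and 6.39 FPKM in bone 1 to 3, and 0, 5.53 and 4.31 FPKM in osteoblasts 1 to 3. The low values were under the floor in each of the 3 libraries concerned. Some reads were still assigned to the gene in bone 1 and bone 2, with a coverage of 0.139 and 0.128. Where both genes were high, the ratio of *Hapln1* to *Acan* ran from 0.074 to 0.096. A second gene model, *Gm8546*, lies inside *Hapln1* on the opposite strand and measured 0.167 to 0.605 FPKM, with its highest value in bone 1, where *Hapln1* was low.

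*Snorc* encodes a small membrane proteoglycan of chondrocytes, on Chr. 1 (87470271 to 87475482, plus strand). It was listed at 0, 0 and 58.6 FPKM in bone 1 to 3, and at 0, 59.3 and 37.4 FPKM in osteoblasts 1 to 3. It was 1 of 2 members, with *Matn1*, at 0 in all 3 libraries with little *Hbb-bt*. It was also the one gene whose highest value among the 3 libraries with much *Hbb-bt* was not in bone 3. There the ratio of *Snorc* to *Acan* was 0.674, against 1.02 in osteoblasts 2 and 0.836 in osteoblasts 3. By deposited coverage, *Snorc* was at 23.7, 32.4 and 15.4 in bone 3 and osteoblasts 2 and 3, against 213, 193 and 112 for *Acan*. The level of *Snorc* relative to other genes thus depended on the measure.

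*Comp* encodes cartilage oligomeric matrix protein, a pentameric thrombospondin that also occurs in tendon and ligament. It lies on Chr. 8 (70373558 to 70384516, plus strand). *Comp* measured 27.1, 8.63 and 189 FPKM in bone 1 to 3, and 9.92, 158 and 108 FPKM in osteoblasts 1 to 3. It was the highest of the 10 genes in 6 of 6 libraries. The lowest of the 3 high values was 3.96 times the highest of the rest. Its last 2162 bases overlap *Crtc1* on the opposite strand, which measured 0.895 to 4.73 FPKM, and the kit does not mark strand.

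*Chad* encodes chondroadherin, a leucine-rich repeat protein of the cartilage matrix, on Chr. 11 (94565047 to 94569127, plus strand). It measured 0, 0.041 and 81.6 FPKM in bone 1 to 3, and 0.044, 78.7 and 63.0 FPKM in osteoblasts 1 to 3. The 3 low values were under the floor, and the 3 high ones stood between the percentiles 94.2 and 95.5 of genes with at least 1 FPKM. *Chad* lies wholly inside *Acsf2*, an acyl-CoA synthetase gene on the opposite strand. *Acsf2* measured 1.51, 0.948 and 5.26 FPKM in bone 1 to 3, and 1.17, 3.79 and 5.81 FPKM in osteoblasts 1 to 3, far below *Chad* wherever *Chad* was high.

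The order of the levels was not the same in the 2 kinds of library. In bone 3 and osteoblasts 2 and 3, *Comp* led, followed by *Acan*, *Chad* and *Snorc* in varying order, and then by *Matn3*, *Hapln1*, *Ihh*, *Matn1*, *Sox9* and *Matn4* in that order in each of the 3. Over these 3 libraries the ranges of neighbours overlapped, except that *Comp* (108 to 189 FPKM) did not reach down to *Acan* (44.7 to 87.0 FPKM), *Chad* (63.0 to 81.6 FPKM) not to *Snorc* (37.4 to 59.3 FPKM), *Snorc* not to *Matn3* (5.98 to 9.78 FPKM), and *Hapln1* (4.31 to 6.39 FPKM) not to *Ihh* (2.69 to 3.64 FPKM). By deposited coverage, the range of *Snorc* (15.4 to 32.4) overlapped that of *Matn3* (15.7 to 24.5), so the place of *Snorc* in this order holds for FPKM only. In the other 3 libraries *Comp* was followed by *Matn4* and then by *Sox9*. *Comp* took 83.8, 78.4 and 42.8% of the sum in bone 1 to 3, and 75.5, 42.5 and 39.9% in osteoblasts 1 to 3. Its share was thus lower where the sum was high, where *Acan*, *Chad* and *Snorc* took a larger part. The ratio of *Acan* to *Comp* was 0.017, 0.012 and 0.460 in bone 1 to 3, and 0.015, 0.366 and 0.416 in osteoblasts 1 to 3.

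**Figure D2:**
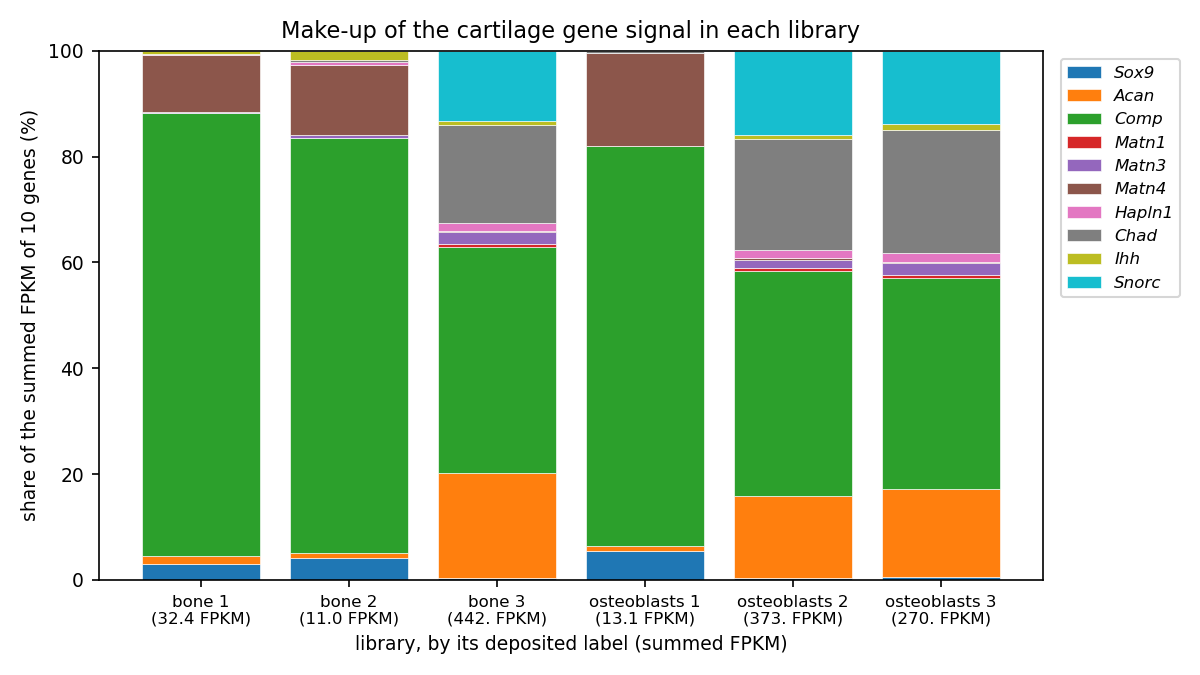
Share of each of the 10 genes in their summed FPKM (%, stacked bars), by library, with the sum printed under each bar. *Comp* takes 75.5 to 83.8% in the 3 libraries with sums of 11.0 to 32.4 FPKM and 39.9 to 42.8% in those with sums of 270 to 442 FPKM, where *Acan*, *Chad* and *Snorc* make up most of the rest.

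The 3 matrilins, adaptor proteins that join collagen fibrils and proteoglycans into filaments, did not share a pattern. *Matn1*, the form found mostly in cartilage, lies on Chr. 4 (130944385 to 130955475, plus strand). It was listed at 0, 0 and 2.84 FPKM in bone 1 to 3, and at 0, 2.13 and 1.87 FPKM in osteoblasts 1 to 3. *Matn3*, which is prominent in growth plate cartilage, lies on Chr. 12 (8947929 to 8972028, plus strand). It measured 0.068, 0.069 and 9.78 FPKM in bone 1 to 3, and 0, 5.98 and 6.16 FPKM in osteoblasts 1 to 3. The ratio of *Matn3* to *Matn1* was 3.44, 2.81 and 3.29 in the 3 libraries where both were high.

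*Matn4* is the matrilin of widest tissue distribution and lies on Chr. 2 (164389393 to 164405160, minus strand). It measured 3.48, 1.46 and 1.26 FPKM in bone 1 to 3, and 2.33, 0.955 and 0.454 FPKM in osteoblasts 1 to 3. Its 3 lowest values were in the libraries with the most *Hbb-bt*, although the gap between 1.26 and 1.46 FPKM was small. The whole of *Matn4* lies within the deposited *Slpi* feature on the same strand, which measured 3.04 to 6.20 FPKM in the libraries with little *Hbb-bt* and 36.1 to 53.6 FPKM in the rest. Reads of *Matn4* and of this longer feature may have been divided between them by the authors' software, so the *Matn4* values are uncertain. Its first 2020 bases also overlap *Rbpjl* on the opposite strand, which was at most 0.098 FPKM.

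The 250 bases before the RefSeq start of each matrilin are shown because these related genes parted in direction, at chr4:130944135-130944384 (plus strand), chr12:8947679-8947928 (plus) and chr2:164405161-164405410 (minus). The sequences are of GRCm38.p6, 5′ to 3′. Capitals mark matches, on either strand, to the SOX core ACAAT, to TATAAA and to the GLI core GGGTGG, none of which overlap one another here.
*Matn1*: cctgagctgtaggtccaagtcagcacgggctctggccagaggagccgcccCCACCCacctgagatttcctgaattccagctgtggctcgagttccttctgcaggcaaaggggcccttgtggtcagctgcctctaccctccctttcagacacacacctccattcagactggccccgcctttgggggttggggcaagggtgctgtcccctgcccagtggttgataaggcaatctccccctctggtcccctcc
*Matn3*: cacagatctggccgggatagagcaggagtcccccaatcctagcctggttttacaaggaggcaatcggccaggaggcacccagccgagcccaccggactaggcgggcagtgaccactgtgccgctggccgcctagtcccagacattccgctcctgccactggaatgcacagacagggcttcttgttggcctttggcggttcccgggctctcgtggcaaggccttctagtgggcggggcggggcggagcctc
*Matn4*: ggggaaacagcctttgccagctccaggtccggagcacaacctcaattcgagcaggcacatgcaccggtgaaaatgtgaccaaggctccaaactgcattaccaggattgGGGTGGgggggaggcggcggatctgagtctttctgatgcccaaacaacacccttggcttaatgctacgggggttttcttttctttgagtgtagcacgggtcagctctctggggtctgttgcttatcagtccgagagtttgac
*Matn1* and *Matn4* each held 1 GLI core, *Matn3* held no match, and none of the 3 held the SOX core or TATAAA. The GC content was 62.0% for *Matn1*, 65.2% for *Matn3* and 54.4% for *Matn4*, against a median of 52.4% over the 32851 promoters of the table. A second start of *Matn4* in the table, with its window at chr2:164404819-164405068, held no match to any motif.

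*Ihh* encodes Indian hedgehog, the signal of prehypertrophic chondrocytes, on Chr. 1 (74945315 to 74951672, minus strand). It measured 0.223, 0.187 and 3.64 FPKM in bone 1 to 3, and 0, 2.69 and 2.75 FPKM in osteoblasts 1 to 3. Its low values were at or near the floor, and its 3 high values were those of the libraries with much *Hbb-bt*. An unnamed feature of 211 bases inside *Ihh* measured 0.164 FPKM in osteoblasts 2 and 0.366 FPKM in osteoblasts 3 and was listed at 0 in the other 4 libraries.

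The same windows of *Hapln1*, *Chad* and *Ihh* are shown as genes that moved together across the libraries, at chr13:89540386-89540635 (plus), chr11:94564797-94565046 (plus) and chr1:74951673-74951922 (minus), with the same capitals. The RefSeq start of *Hapln1* lies inside the span of the deposited gene, so its window does too.
*Hapln1*: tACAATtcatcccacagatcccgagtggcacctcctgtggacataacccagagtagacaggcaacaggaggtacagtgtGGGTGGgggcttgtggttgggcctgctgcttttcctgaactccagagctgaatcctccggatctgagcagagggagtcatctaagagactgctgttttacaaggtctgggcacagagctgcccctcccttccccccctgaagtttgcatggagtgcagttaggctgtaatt
*Chad*: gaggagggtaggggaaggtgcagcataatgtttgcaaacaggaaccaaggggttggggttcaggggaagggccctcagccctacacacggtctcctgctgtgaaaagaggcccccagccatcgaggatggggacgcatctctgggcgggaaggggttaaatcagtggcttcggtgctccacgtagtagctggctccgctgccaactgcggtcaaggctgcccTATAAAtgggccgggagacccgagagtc
*Ihh*: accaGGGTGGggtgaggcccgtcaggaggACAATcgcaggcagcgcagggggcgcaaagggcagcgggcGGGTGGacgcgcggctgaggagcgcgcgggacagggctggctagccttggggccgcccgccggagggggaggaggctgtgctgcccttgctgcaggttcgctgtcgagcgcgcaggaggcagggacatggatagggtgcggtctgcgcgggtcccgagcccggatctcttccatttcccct
*Hapln1* held 1 SOX core and 1 GLI core, *Ihh* held 1 SOX core and 2 GLI cores, and *Chad* alone held TATAAA. Of the 8 windows of the 7 members in the table, 2 held the SOX core, against 27.7% of all promoters. The GLI core was found in 5 of the 8, against 28.1% of all promoters, and TATAAA in 1 of the 8, against 12.4%. These matches describe the letters of the windows and say nothing of binding. The 8 windows held 54.4 to 74.4% GC, all above the median of 52.4% over all promoters. The motif shares were not compared at like GC content.

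The libraries labelled osteoblasts were then compared with those labelled bone, the one comparison the labels allow. On the scale of log2(FPKM + 1), *Chad* differed by 1.98 (SE 1.99, 95% interval -2.53 to 6.50), *Snorc* by 1.76 (SE 1.85, -2.43 to 5.95) and *Acan* by 1.48 (SE 1.87, -2.76 to 5.72), all with higher means under osteoblasts. The difference was 0.63 (SE 1.25) for *Comp*, 0.69 (SE 0.93) for *Hapln1*, 0.67 (SE 1.04) for *Matn3*, 0.41 (SE 0.69) for *Matn1*, 0.35 (SE 0.72) for *Ihh*, 0.06 (SE 0.45) for *Sox9* and -0.46 (SE 0.50) for *Matn4*. None passed the threshold in limma (adjusted P = 0.999 for each of the 10, with 0 of 10 under an unadjusted p of 0.05). The means under the labels were closer together than either SD for 10 of the 10 genes, as in *Acan* with 29.2 ± 50.1 FPKM under bone and 34.3 ± 30.3 FPKM under osteoblasts (SD, n = 3). Exact permutation tests, two-sided, gave P = 0.4 for *Matn4* and 0.7 to 1 for the other 9, where 0.1 is the smallest that 3 libraries against 3 allow. Across all 12112 genes limma called 0 higher and 0 lower (0.0%), with 17 under an unadjusted p of 0.05, and the median difference was 0.12. The intervals are wide enough to hold large differences in either direction, so similar levels are not shown.

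Leaving out 1 library brought calls. Without bone 3, *Chad* was called higher under osteoblasts by 4.10 (SE 0.99, limma, adjusted P = 0.049), while *Snorc* (adjusted P = 0.053) and *Acan* (adjusted P = 0.062) missed the threshold, and 66 genes (0.545%) were called higher. Without osteoblasts 1, *Chad* (4.02, SE 0.94, adjusted P = 0.012), *Snorc* (3.62, SE 0.90, adjusted P = 0.020) and *Acan* (3.32, SE 0.92, adjusted P = 0.037) were called higher, among 262 genes (2.16%). Over all alternatives the adjusted P reached 1 for each of the 3 genes. Each of these omissions removes the library of its label that differed from the other 2 in *Hbb-bt*. No member was called without any one of the other 4 libraries.

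**Figure D3:**
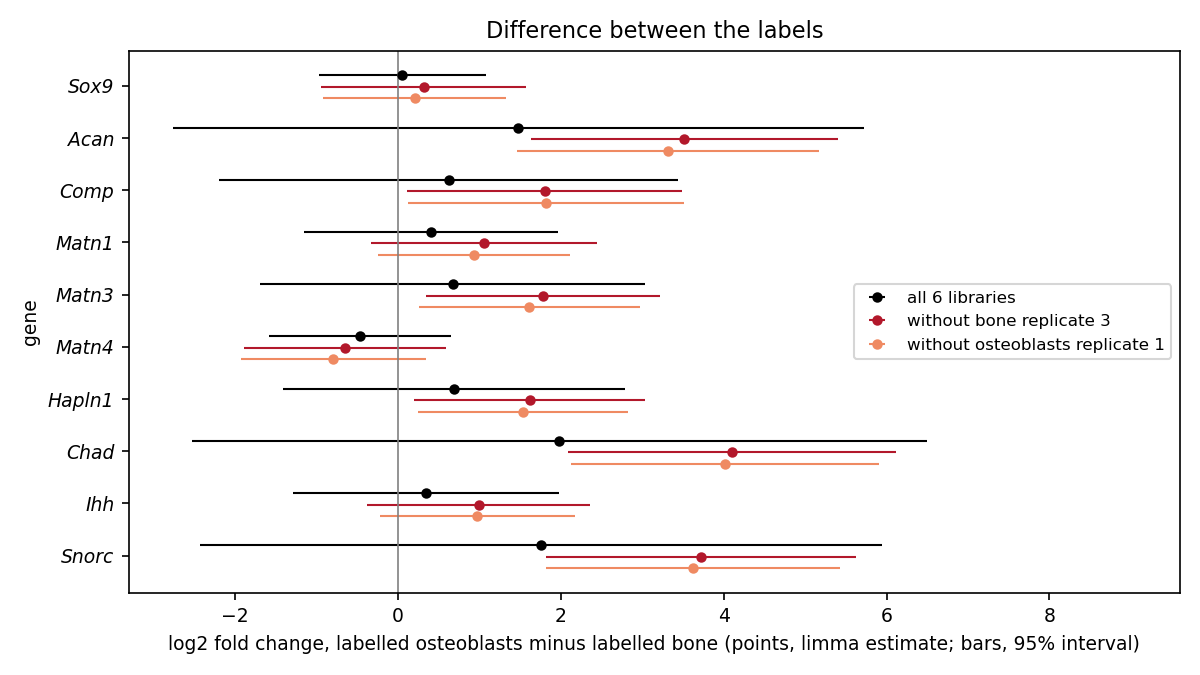
Difference in log2(FPKM + 1) between libraries labelled osteoblasts and those labelled bone for the 10 genes (points, limma estimates; bars, 95% intervals), with all 6 libraries and without bone 3 or osteoblasts 1. With all libraries every interval spans 0, and without either of the 2 the estimates for *Acan*, *Chad* and *Snorc* rise to between 3.32 and 4.10.

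Within the 3 libraries with *Hbb-bt* above 1000 FPKM, 9 of the 10 genes were highest in the one labelled bone. There, bone 3 exceeded both libraries labelled osteoblasts by 87.0 against 58.0 and 44.7 FPKM for *Acan* and by 9.78 against 5.98 and 6.16 FPKM for *Matn3*. *Chad*, at 81.6 against 78.7 and 63.0 FPKM, was closer. With a single library under one label, these differences had no replicate check. The share of all genes that were highest in bone 3 is not given here, so the 9 of 10 cannot be set against it.

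The collagens of cartilage, 8 genes in all, were taken as the nearest companions of the set, and 6 of them had a named row. 5 of the 6 were wholly above in the libraries with *Hbb-bt* above 1000 FPKM, beside 38.4% of all genes. *Col9a1*, a chain of collagen IX that coats collagen II fibrils, was listed at 0 in the 3 libraries with little *Hbb-bt* and measured 33.5, 30.1 and 23.2 FPKM in bone 3 and osteoblasts 2 and 3. *Col9a2* measured 67.3, 55.6 and 37.5 FPKM and *Col9a3* 57.9, 49.7 and 27.4 FPKM in the same order, and neither passed 0.104 FPKM elsewhere. The 3 chains of collagen IX were therefore at or near 0 together.

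*Col10a1*, the collagen of hypertrophic chondrocytes, measured 12.2, 2.96 and 186 FPKM in bone 1 to 3, and 3.05, 131 and 93.9 FPKM in osteoblasts 1 to 3. Like *Comp*, it was low but above the floor where collagen IX was at or near 0. Its ratio to *Comp* was 0.307 to 0.450 there and 0.828 to 0.986 in the rest. *Col27a1*, a fibrillar collagen of cartilage, measured 0.619 to 1.66 FPKM in the former libraries and 10.1 to 16.3 FPKM in the latter. *Col11a1*, which cartilage shares with mesenchymal cells of bone, was the exception, at 62.0, 44.1 and 93.7 FPKM in bone 1 to 3 and 70.5, 65.0 and 70.9 FPKM in osteoblasts 1 to 3. None of the 6 was called between the labels by limma (adjusted P = 0.999), and their median difference was 1.14, against 0.12 over all genes.

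*Col2a1*, the major collagen of cartilage, has no named row in these tables. An unnamed feature on Chr. 15 (97975602 to 98004695, minus strand) spans it and a second RefSeq gene, *Gm46536*. This feature measured 29.5, 5.95 and 510 FPKM in bone 1 to 3, and 5.23, 347 and 251 FPKM in osteoblasts 1 to 3. It was higher than any of the 10 genes in the same library where it was high, and its low values were above those of *Acan* and *Chad*. *Col11a2* likewise lay under an unnamed feature, on Chr. 17 (34038862 to 34069843, plus strand), with 50.3, 31.5 and 271 FPKM in bone 1 to 3 and 53.9, 194 and 166 FPKM in osteoblasts 1 to 3.

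**Figure D4:**
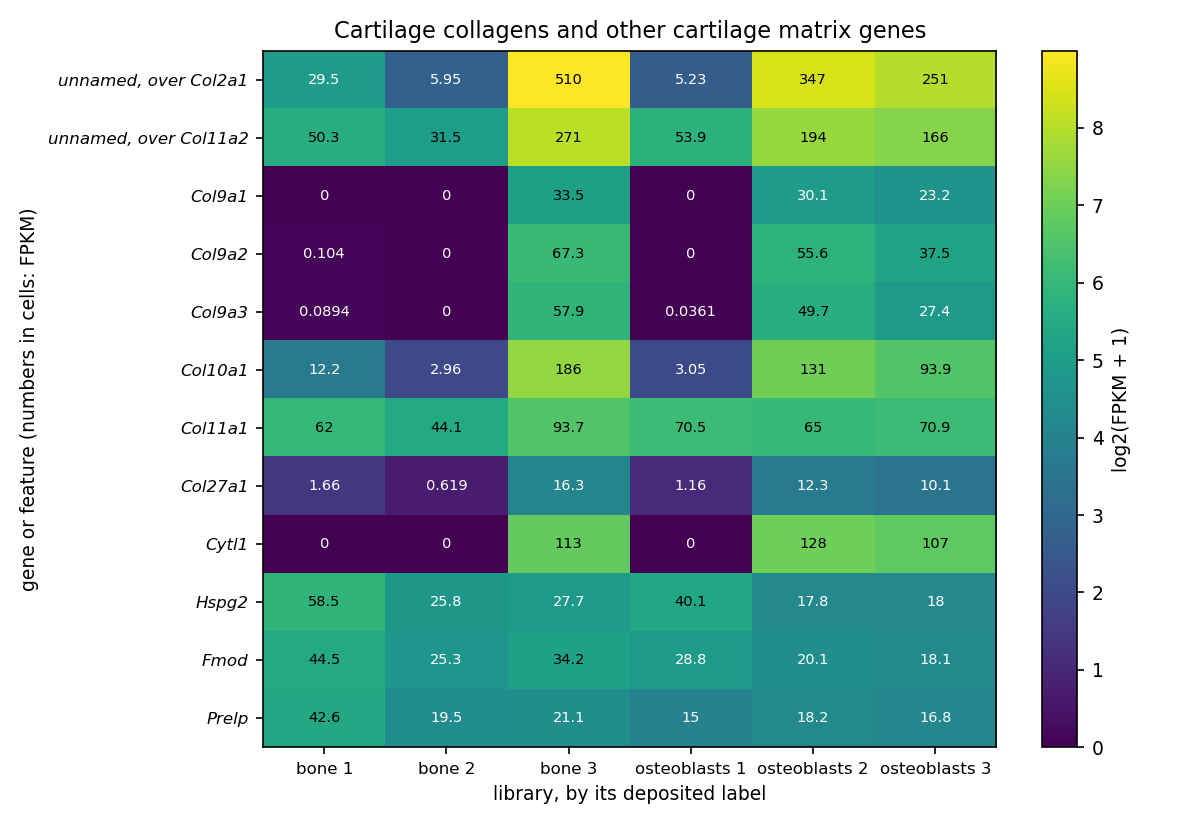
Expression of cartilage collagens and of the 4 other cartilage matrix genes with the highest means, by library (colour, log2(FPKM + 1); printed numbers, FPKM). The unnamed features over *Col2a1* and *Col11a2*, collagen IX, *Col10a1*, *Col27a1* and *Cytl1* are high in bone 3 and osteoblasts 2 and 3, while *Col11a1*, *Hspg2*, *Fmod* and *Prelp* are present in all 6 libraries.

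Other matrix genes of cartilage were mixed. Of 24 listed, 17 had a named row and a mean of at least 1 FPKM, and 9 of these were wholly above in the libraries with *Hbb-bt* above 1000 FPKM while 2 were wholly below, beside 38.4% and 16.9% of all genes. *Cytl1*, a cytokine-like protein of chondrocytes and the highest of this list, was listed at 0 in 3 libraries and measured 113, 128 and 107 FPKM in bone 3 and osteoblasts 2 and 3. The other 3 genes of highest mean in this list were present in all 6 libraries. The perlecan gene *Hspg2* measured 58.5, 25.8 and 27.7 FPKM in bone 1 to 3 and 40.1, 17.8 and 18.0 FPKM in osteoblasts 1 to 3. Fibromodulin (*Fmod*, 18.1 to 44.5 FPKM) and prolargin (*Prelp*, 15.0 to 42.6 FPKM) varied by less than 3-fold over the 6 libraries. 0 of the 17 were called between the labels, with a median difference of 0.30.

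Transcription factors of the chondrocyte program that had a named row were low. 6 of 12 had a named row with a mean of at least 1 FPKM, of which 2 were wholly above and 1 was wholly below, beside the same 38.4% and 16.9%. *Mef2c*, which drives chondrocyte hypertrophy and is used in many other cells, was the highest, at 6.52 to 11.3 FPKM, followed by *Trps1* at 6.62 to 11.3 FPKM. *Sox5*, a partner of SOX9 at cartilage enhancers that was singled out after its values were seen, measured 0.091, 0.093 and 2.70 FPKM in bone 1 to 3 and 0.197, 1.65 and 3.31 FPKM in osteoblasts 1 to 3. Its relative *Sox6* lay under an unnamed feature that spans 2 further RefSeq genes and measured at most 0.036 FPKM in the libraries with little *Hbb-bt* and 30.8 to 34.7 FPKM in the rest. *Sox9* thus differed less between these libraries than *Sox5* or this feature, and which cells the feature came from was not tested. 0 of the 6 were called between the labels, with a median difference of 0.12.

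Around *Ihh*, the hedgehog and PTHrP pathway was measured in 8 of 16 listed genes, 2 of them wholly above and 2 wholly below, beside 38.4% and 16.9% of all genes. *Smo*, the membrane transducer of hedgehog signals, was lower where *Ihh* was higher, with 21.2, 9.40 and 8.38 FPKM in bone 1 to 3 and 13.2, 8.21 and 7.29 FPKM in osteoblasts 1 to 3. *Fgfr3*, a receptor that slows growth plate chondrocytes, measured 3.33 to 10.4 FPKM with no such division. *Ptch1* and *Gli1*, textbook targets of the pathway that were singled out after their values were seen, were the 2 wholly above. *Gli1* measured 0.134, 0.024 and 2.68 FPKM in bone 1 to 3 and 0.085, 1.31 and 1.85 FPKM in osteoblasts 1 to 3. *Ptch1* measured 2.23, 1.13 and 6.97 FPKM in the former and 2.05, 4.96 and 6.82 FPKM in the latter. *Pthlh*, the PTHrP gene and likewise singled out afterwards, did not pass 0.169 FPKM in any library. 0 of the 8 were called between the labels, with a median difference of -0.06.

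Genes that sulfate and polymerize the glycosaminoglycan chains of aggrecan were mixed. Of 11 with a mean of at least 1 FPKM, 2 were wholly above and 4 wholly below, beside 38.4% and 16.9% of all genes. The 2 above, singled out after their values were seen, were the sulfotransferase gene *Chst3* (0.678 to 1.55 FPKM in the libraries with little *Hbb-bt* and 5.16 to 6.47 FPKM in the rest) and the xylosyltransferase gene *Xylt1* (1.29 to 2.68 and 4.12 to 7.08 FPKM). *Ugdh*, which makes the sugar precursor, measured 30.6 to 67.4 FPKM over the 6 libraries. The chondroitin polymerizing factor *Chpf* was lower where *Acan* was high, at 44.2, 19.4 and 6.004 FPKM in bone 1 to 3 and 23.6, 4.76 and 4.79 FPKM in osteoblasts 1 to 3. Of 7 proteases that act on the cartilage matrix, 0 were wholly above and 4 wholly below, beside the same shares, and 3 overlapped. *Mmp13*, a collagenase of hypertrophic chondrocytes and osteoblasts, measured 168, 106 and 36.7 FPKM in bone 1 to 3 and 98.7, 37.4 and 35.8 FPKM in osteoblasts 1 to 3. *Adamts1* measured 40.5, 18.9 and 2.11 FPKM under bone and 29.5, 1.70 and 2.16 FPKM under osteoblasts in the same order. *Htra1* (7.91 to 16.1 FPKM) and *Adamts9* (1.15 to 6.12 FPKM) were among the 3 that overlapped. 0 of the 11 and 0 of the 7 were called between the labels, with median differences of -0.11 and -0.40.

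Markers of other tissues moved with the cartilage genes. Of 8 erythroid markers, 5 had a named row, with 5 of 5 wholly above, beside 38.4% of all genes. These summed to 3.48 to 7.29 FPKM in bone 1 and 2 and osteoblasts 1 and to 35764 to 50288 FPKM in the rest. Neutrophil markers, 8 of 8 wholly above beside the same share, summed to 0.497 to 5.79 FPKM and to 14384 to 17371 FPKM. Skeletal muscle markers, of which 5 of 8 had a named row and 5 of 5 were wholly above beside the same share, summed to 0.086 to 1.14 FPKM in the former. In the latter they summed to 1335 FPKM in bone 3, 307 FPKM in osteoblasts 2 and 673 FPKM in osteoblasts 3. In the same order of libraries the erythroid sum was 36369, 35764 and 50288 FPKM and the neutrophil sum 14384, 15760 and 17371 FPKM. The sum of the cartilage genes was 442, 373 and 270 FPKM, an order that none of these marker sums followed. The defining erythroid genes *Slc4a1* and *Alas2* were at most 0.208 FPKM in the libraries with little *Hbb-bt*. The part of these tissues in the cartilage values was not tested.

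Markers of osteoblasts and osteocytes summed to 1545 to 2176 FPKM over the 6 libraries, and this sum joined genes of opposite pattern. Of 8, 2 were wholly above and 3 wholly below, beside 38.4% and 16.9% of all genes. The osteocalcin gene *Bglap2*, the highest of the list, measured 264, 383 and 1959 FPKM in bone 1 to 3 and 513, 1889 and 1641 FPKM in osteoblasts 1 to 3. The bone sialoprotein gene *Ibsp* measured 1278, 986 and 43.1 FPKM in bone 1 to 3 and 1004, 78.2 and 91.3 FPKM in osteoblasts 1 to 3. *Sost*, the sclerostin gene of osteocytes, was singled out after its values were seen. It was under the floor in the libraries with little *Hbb-bt* (0.066 to 0.198 FPKM) and measured 15.8 to 22.7 FPKM in the rest. *Dmp1*, of the same list and higher in mean, went the other way, at 104, 50.0 and 24.2 FPKM in bone 1 to 3. In osteoblasts 1 to 3 *Dmp1* measured 127, 22.5 and 22.9 FPKM. Markers of marrow stromal cells and fibroblasts summed to 741 to 1336 FPKM in the libraries with few cartilage transcripts and to 128 to 165 FPKM in the rest. Of these 6, 0 were wholly above and 4 wholly below, beside the same shares. Tendon and ligament markers, which matter for *Comp*, summed to 29.8 to 62.8 FPKM without such a division. Of 5, 0 were wholly above and 2 wholly below, beside the same shares. The largest part of this sum was *Fmod* (18.1 to 44.5 FPKM), which, like *Thbs4* (4.20 to 19.4 FPKM), is also in the list of other cartilage matrix genes. The defining tendon gene *Tnmd*, singled out after its values were seen, did not pass 0.501 FPKM in any library. *Scx*, of the same list and higher in mean than *Tnmd*, was present in all 6 libraries and was wholly below. It measured 6.70, 3.71 and 1.61 FPKM in bone 1 to 3, and 4.10, 1.96 and 1.17 FPKM in osteoblasts 1 to 3. The part of tendon and ligament in the *Comp* values was not tested. 0 genes of any of these marker lists were called between the labels.

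The genes most like each member over the 6 libraries were sought by Pearson's r on log2(FPKM + 1). The nearest to *Comp* were *Rab3il1* and *Col10a1*, the nearest to *Chad* were *Gm16538* and *Chil1*, and the nearest to *Snorc* were 6030468B19Rik and *Cilp*. *Matn4* stood nearest to *Cacna1c* and *Tubb6*, at r of 0.993 and 0.989. Such likeness is common in 6 libraries that fall into 2 kinds, since between 140 genes (for *Matn4*) and 2080 genes (for *Comp*) of 12111 exceeded an r of 0.95 with a member.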

How the data were processed

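RNA-seq was measured in 3 libraries labelled bone and 3 labelled osteoblasts. By the methods of the study and its processing notes, the authors made TruSeq RNA v2 libraries from total RNA, sequenced 75 bp paired-end reads, and used HISAT2 2.0.5, SAMtools 1.7 and StringTie 1.3.3 on GRCm38. StringTie gave the deposited FPKM, which relate to all aligned reads. It also gave the deposited TPM, which are rescaled to nearly one total per library, and the deposited coverage, the mean read depth over a feature. No counts were among the files used here, so no count model was fitted.

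Groups were taken from the labels. Rows sharing a name were summed, and unnamed features were left out of the tests. Tests used log2(FPKM + 1), and genes were kept where the mean of the 6 libraries reached 1 FPKM (12112 of 48733, among them 10 of the 10 members). limma 3.58.1 in R 4.3.3 (lmFit, eBayes with a trend) compared the labels, with Benjamini-Hochberg adjustment over all genes tested and a threshold of 0.05. Each member was also compared by an exact permutation test over its 20 assignments. Changes of low genes are understated on this scale. The limma step was tested on simulated data with independent normal values and no division of libraries within a label. This checked the code and says nothing of the power in these libraries. Other steps used Python 3.11.15, pandas 2.3.3, numpy 2.4.6 and matplotlib 3.10.9.

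The members and gene lists were chosen with earlier results of these data known. Named genes were the members, *Hbb-bt*, the collagens, up to 4 genes of highest mean per list (others are said to be singled out), the 2 genes most like a member, and features overlapping a member. The alternatives were pseudocounts of 0.1 and 0.01, other filters, TPM, 75th percentile, named-sum and quantile scaling, the highest row of a name, no trend, the replicate number as a block, *Hbb-bt* above 1000 FPKM as a term, and leaving out libraries singly or by *Hbb-bt*. Promoter letters are from RefSeq, GRCm38.p6, which held 7 of the 10 members.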

Additional observations from a re-analysis of the deposited data

How the results depend on the processing

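With all 6 libraries kept and no added term, another pseudocount, filter, unit, scaling or trend left the limma counts at 0 higher and 0 lower. The replicate number as a block gave 46 genes higher and 3 lower under osteoblasts and called no member. Over the genes tested, the deviations of same-numbered libraries correlated at r of 0.841, -0.747 and 0.830 for numbers 1 to 3. Those of differently numbered libraries did so at 0.803 (bone 2 with osteoblasts 1), 0.831 (bone 3 with osteoblasts 2) and otherwise -0.907 to -0.722. The r was positive wherever both libraries were on the same side of the *Hbb-bt* cut and negative elsewhere. Its sign followed that division whatever the numbers, so pairing was left undecided and the main tests stayed unpaired. Without the libraries with *Hbb-bt* above 1000 FPKM limma called 8 higher, without the other 3 it called 1 lower, and with *Hbb-bt* status as a term it called 8 higher and 8 lower. Leaving out 1 library at a time gave 0 to 262 genes higher, 0 to 38 lower and 0 to 3 members higher. The cause was not tested.

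The direction of a member turned in the following cases. With the 3 libraries with *Hbb-bt* above 1000 FPKM alone (1 labelled bone), the difference was -0.31 for *Sox9*, -0.76 for *Acan*, -0.53 for *Comp*, -0.36 for *Matn1*, -0.61 for *Matn3*, -0.33 for *Hapln1*, -0.21 for *Chad*, -0.32 for *Ihh* and -0.31 for *Snorc*. With *Hbb-bt* status as a term these were -0.15, -0.46, -0.56, -0.18, -0.35, -0.21, -0.088, -0.29 and -0.16 in the same order. Without the libraries with *Hbb-bt* above 1000 FPKM they were -0.15 for *Acan*, -0.59 for *Comp*, -0.095 for *Matn3*, -0.083 for *Hapln1*, -0.27 for *Ihh* and 0.0046 for *Matn4*, with 1 library labelled osteoblasts. In both cases the lone library is assumed to vary like the others, and a missing call says nothing of stability. *Sox9* turned to -0.0021 with scaling to named genes and to -0.23 with quantile normalization, and *Ihh* to -0.39 with a pseudocount of 0.01. Leaving out single libraries, *Sox9* ran from -0.19 to 0.32 and *Comp* from -0.35 to 1.82. Values under the floor cannot be ranked at this depth.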
